A study of Rattus norvegicus with 6 samples.

Results

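The genes described here are EPX, LYPD1, IGSF10, SYNPR and NWD2, 5 of the 26319 genes counted in isolated rat glomeruli, the filtering units of the kidney. They were chosen by their measured levels, each standing higher in all 4 libraries from rats carrying an AT1R transgene than in both wild-type libraries, so every difference from wild type below is a description without a test. The choice did not compare AC1903 with vehicle within the transgenic rats, but it is not free of that comparison. It required the AC1903 libraries to stand above WT, so a gene that AC1903 brought down to the WT level could not be among them. Each symbol paired with 1 Ensembl rat gene, and 5 of 5 passed the filter on low counts, which left 13426 genes.

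The study sequenced polyadenylated RNA from Sprague Dawley rats in 3 groups of 2. AT1R Tg rats given AC1903, which blocks TRPC5 ion channels, were 23.0 weeks old in replicate 1 and 20.4 weeks in replicate 2. AT1R Tg rats given vehicle were 20.4 and 17.4 weeks old. Wild-type rats (WT), which also received vehicle, were 20.4 and 21.9 weeks old. AT1R is the angiotensin II type 1 receptor, and as background the published AT1R transgenic rat expresses it in podocytes from a nephrin promoter. The labels name neither the promoter, the receptor sequence, the AC1903 dose nor whether the WT rats were littermates. The transgene, its insertion site and any other inherited difference between the 2 stocks cannot be told apart.

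The 5 genes have unrelated textbook roles. EPX encodes eosinophil peroxidase, a haem enzyme that eosinophils store in their granules and use to make oxidising acids from halides. LYPD1 (also called Lynx2) is a membrane-anchored protein of the Ly6/uPAR family that in mouse brain binds nicotinic acetylcholine receptors and dampens them. IGSF10 is a large secreted protein of the immunoglobulin superfamily, linked in humans to delayed puberty. SYNPR, synaptoporin, is a synaptic vesicle membrane protein of the synaptophysin family. NWD2 carries a NACHT ATPase domain and WD repeats, and its function is little known.

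The promoters of EPX, LYPD1 and IGSF10 are shown because the window at their first listed start held at least 1 of the motifs searched. That they hold motifs thus follows from the choice. All 5 genes moved together across the libraries, so this did not set the promoters shown apart. The windows come from RefSeq on build GRCr8, where all 5 genes were matched. They run from 250 bases before to 50 bases after the listed start, all on the minus strand. The EPX window is chr10:73175131-73175430, that of LYPD1 chr13:39921072-39921371 and that of IGSF10 chr2:145754530-145754829. Capitals mark matches on either strand to motifs searched in every window. The basal promoter motifs were the box spelled TATAAA, the element CCAAT, and the Sp1-type box GGGCGG, called a GC box. The factor motifs were TGTGGT for the RUNX family, the letters AGATAA for GATA proteins, the E-box spelled CACGTG, and for cyclic AMP signalling the element TGACGTCA.
EPX: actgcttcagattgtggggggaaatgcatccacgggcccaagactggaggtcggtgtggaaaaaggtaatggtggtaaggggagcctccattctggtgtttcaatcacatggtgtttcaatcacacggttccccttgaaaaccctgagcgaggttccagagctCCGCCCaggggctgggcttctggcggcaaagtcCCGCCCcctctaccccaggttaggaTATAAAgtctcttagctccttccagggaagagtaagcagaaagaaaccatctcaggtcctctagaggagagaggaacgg
LYPD1: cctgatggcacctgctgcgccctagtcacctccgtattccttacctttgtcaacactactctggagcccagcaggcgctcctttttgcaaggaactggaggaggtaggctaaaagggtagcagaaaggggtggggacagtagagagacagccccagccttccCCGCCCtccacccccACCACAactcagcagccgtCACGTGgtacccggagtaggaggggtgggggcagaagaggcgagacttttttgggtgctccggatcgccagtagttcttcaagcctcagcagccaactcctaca
IGSF10: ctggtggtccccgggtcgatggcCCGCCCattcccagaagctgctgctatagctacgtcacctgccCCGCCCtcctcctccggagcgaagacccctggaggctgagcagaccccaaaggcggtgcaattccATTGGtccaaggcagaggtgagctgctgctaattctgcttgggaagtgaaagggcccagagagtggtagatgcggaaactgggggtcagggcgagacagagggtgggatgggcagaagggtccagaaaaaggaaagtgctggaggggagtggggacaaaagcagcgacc

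EPX held a TATAAA match (TATA box) 29 bases before its start and 2 GC boxes. LYPD1 held a GC box, a RUNX match and an E-box, and IGSF10 held 2 GC boxes and a CCAAT box. No match overlapped another. The window listed for SYNPR and the NWD2 window at the outermost of its 3 listed starts held none of these motifs. The windows at the other NWD2 starts each held a TATAAA match on the opposite strand, at -65 and at -134 from the start. The window with the match at -65 also held a GATA match. Of 33469 promoters of the same length, 33.1% held a GC box, 17.3% the RUNX match and 14.2% a TATAAA match on either strand. A CCAAT box was in 37.5%, a GATA match in 11.6% and an E-box in 6.42%. No motif was in the windows of all 5 genes.

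The depth of the libraries differed with genotype. The AC1903 libraries held 12325515 and 12637582 expected counts, the vehicle libraries 13464600 and 14230770 and the WT libraries 25045081 and 36026772, so the genes described here were low in the more deeply sequenced libraries. Levels are counts scaled to library size by TMM (CPM), and groups are given as mean ± SD with n = 2. Both rat genes that pair with AGTR1 stood at 56.1 to 70.6 CPM in AT1R Tg AC1903, 87.8 to 99.3 CPM in AT1R Tg vehicle and 85.3 to 151 CPM in WT. Mitochondrially encoded genes took 25.3% to 40.5% of the counts in the AT1R Tg libraries and 22.3% and 28.3% in WT. Podocyte markers were abundant in every library, with NPHS1 (nephrin) at 1271 to 2361 CPM in the AT1R Tg libraries and 1814 and 2329 CPM in WT.

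EPX (ENSRNOG00000008707) had 9.90 and 16.4 CPM in AT1R Tg AC1903 replicates 1 and 2, 19.6 and 10.9 CPM in AT1R Tg vehicle, and 0.0718 and 0.488 CPM in WT. These are 119 and 205 counts with AC1903, 277 and 134 counts with vehicle and 2 and 18 counts in WT. The AT1R Tg and WT libraries lay far apart, and WT replicate 1 was close to no signal. The lowest AT1R Tg library, AC1903 replicate 1, stood 20.3 times above the highest WT library, with an exact 95% interval of 12.3 to 35.4 that covers counting error only. The fits against WT with AC1903 and with vehicle share the WT libraries. On their log2 scale (edgeR) EPX was 5.43 (SE 0.65) higher with AC1903 than in WT and 5.65 (SE 0.65) higher with vehicle than in WT.

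LYPD1 (ENSRNOG00000003453), the Ly6/uPAR protein, had 239.8 and 386 CPM with AC1903, 535 and 280.4 CPM with vehicle, and 52.6 and 55.3 CPM in WT. WT glomeruli thus held this transcript at a clear level, and the 2 WT libraries lay within 1.05 times of each other. The lowest AT1R Tg library was again AC1903 replicate 1, at 4.33 times the highest WT library (counting interval 4.09 to 4.59). The log2 difference from WT was 2.54 (SE 0.34) with AC1903 and 2.92 (SE 0.34) with vehicle. LYPD1 was the 1 gene of the 5 whose expected counts had decimals, so some of its reads also matched elsewhere and were shared out.

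IGSF10 (ENSRNOG00000013917), the secreted immunoglobulin-domain protein, had 56.2 and 76.8 CPM with AC1903, 91.8 and 43.5 CPM with vehicle, and 10.8 and 9.79 CPM in WT. SYNPR (ENSRNOG00000008203), synaptoporin, had 43.5 and 79.9 CPM with AC1903, 86.1 and 39.2 CPM with vehicle, and 4.67 and 7.29 CPM in WT. For both genes vehicle replicate 2 was the lowest AT1R Tg library and vehicle replicate 1 the highest. That lowest library stood 4.03 times above the highest WT library for IGSF10 (counting interval 3.49 to 4.66) and 5.38 times for SYNPR (4.62 to 6.27). The log2 difference from WT was 2.69 (SE 0.34) with AC1903 and 2.72 (SE 0.34) with vehicle for IGSF10. For SYNPR it was 3.36 (SE 0.45) with AC1903 and 3.38 (SE 0.45) with vehicle.

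NWD2 (ENSRNOG00000002190), the NACHT and WD repeat gene, was the sparsest, with 33 and 18 counts with AC1903, 35 and 17 counts with vehicle, and 0 counts in both WT libraries. These are 2.75 and 1.44 CPM with AC1903 and 2.48 and 1.38 CPM with vehicle. Where none was counted, up to 3 counts remain possible, or 0.108 CPM in WT replicate 1 and 0.0813 CPM in WT replicate 2. Set against that limit per library, the lowest AT1R Tg library was at least 12.9-fold higher than WT. NWD2 entered the filter only through the AT1R Tg libraries.

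**Figure D1:**
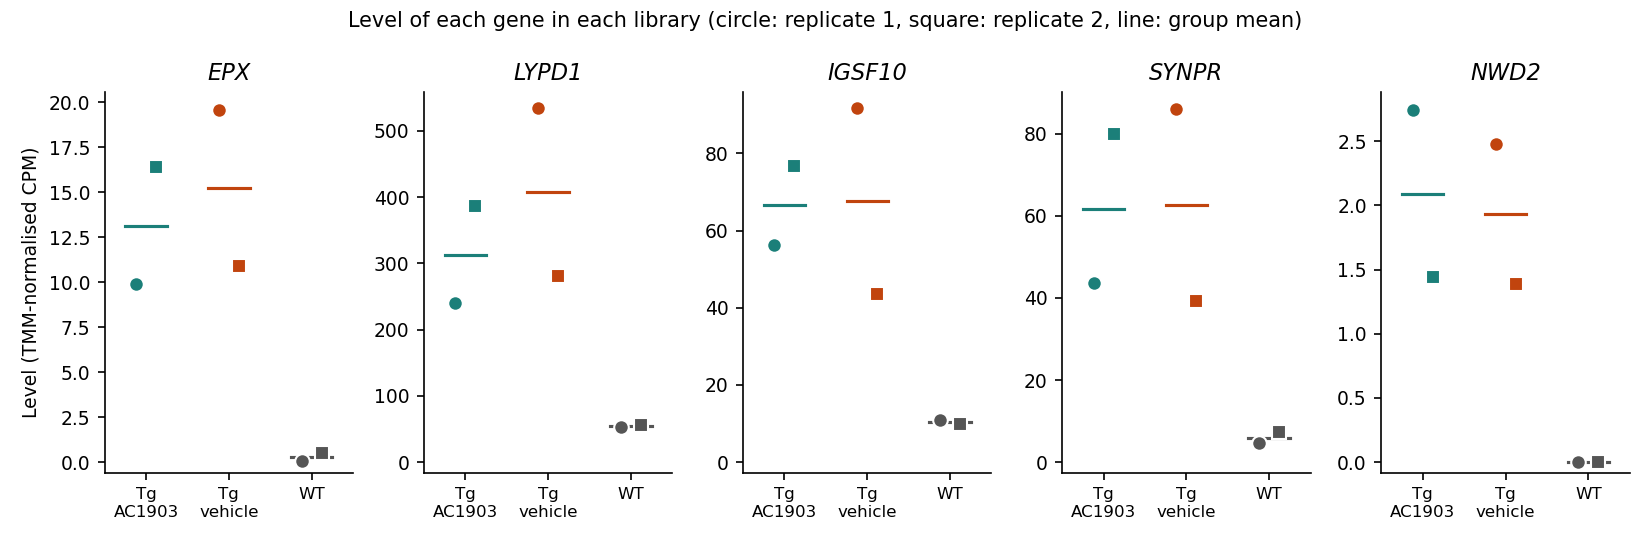
Level of EPX, LYPD1, IGSF10, SYNPR and NWD2 in CPM (vertical axes, each starting near 0) in the libraries of AT1R Tg AC1903, AT1R Tg vehicle and WT. Circles are replicate 1, squares replicate 2 and lines group means; the AC1903 and vehicle points overlap in every panel and all lie above both WT points.

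The direction of the difference was common among all genes, and gaps of this size were not. Of the 13426 genes, 1517 (11.3%) were higher in all 4 AT1R Tg libraries than in both WT libraries, and 1374 (10.2%) were lower in all 4. At the edge of the rule, TXN2 had 90.87 CPM in its lowest AT1R Tg library and 90.86 CPM in its highest WT library, while RHOT2 had 42.178 and 42.180 CPM and fell just outside. The lowest AT1R Tg library stood at least 2 times above the highest WT library in 46 genes and at least 3 times in 15, and these 15 held 5 of the 5. Among all genes tested EPX ranked 2, NWD2 3, SYNPR 7, LYPD1 10 and IGSF10 12 by this ratio.

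Other genes with a mean of at least 1 CPM and a ratio above that of SYNPR included RUNX2, GDF5 and TGFB3, at ratios of 8.18, 7.36 and 7.23. An unnamed gene, ENSRNOG00000050746, stood at 4.82, between SYNPR and LYPD1. The next such gene after IGSF10 was SOST, the bone protein sclerostin, at 3.54.

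**Figure D2:**
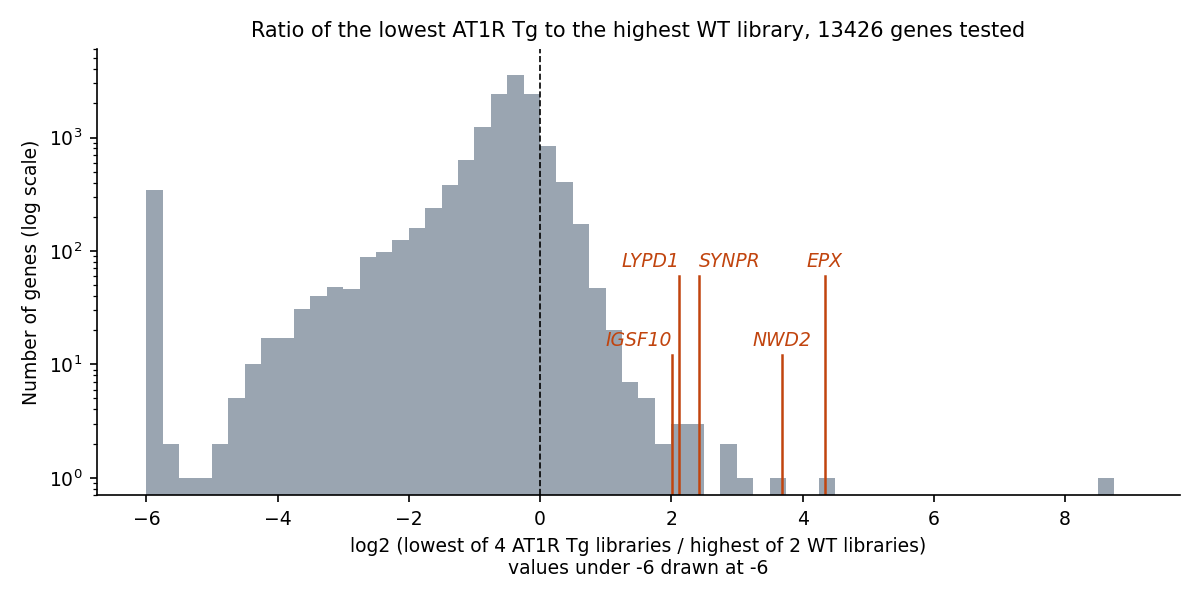
Histogram over 13426 genes of the log2 ratio of the lowest of 4 AT1R Tg libraries to the highest of 2 WT libraries (horizontal axis), with the number of genes on a log scale (vertical axis) and WT counts under 3 set to 3. The dashed line is a ratio of 1, and the marked genes lie at ratios of 4.03 to 20.3 in the thin right tail.

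AC1903 was compared with vehicle within the AT1R Tg rats to ask what the TRPC5 inhibitor changes. For these 5 genes no difference was detected, and the AC1903 and vehicle libraries overlapped in each of them. The choice limits this result, since a fall to the WT level with AC1903 would have kept a gene out. EPX averaged 13.1 ± 4.59 CPM with AC1903 and 15.3 ± 6.15 CPM with vehicle, LYPD1 313 ± 104 CPM with AC1903 and 407 ± 179.7 CPM with vehicle. IGSF10 averaged 66.5 ± 14.6 CPM with AC1903 and 67.7 ± 34.1 CPM with vehicle, SYNPR 61.7 ± 25.8 CPM with AC1903 and 62.6 ± 33.1 CPM with vehicle. NWD2 averaged 2.09 ± 0.924 CPM with AC1903 and 1.93 ± 0.773 CPM with vehicle.

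LYPD1 had the largest log2 change among them, -0.38 with a 95% interval of -1.11 to 0.35, and edgeR's quasi-likelihood test gave an adjusted p of 0.739. That interval spans folds of 0.462 to 1.28. EPX changed by -0.22 (-1.35 to 0.92, adjusted p = 0.919 in edgeR), which spans folds of 0.392 to 1.89. IGSF10 and SYNPR changed by -0.03 and -0.02, with intervals of -0.75 to 0.70 and -0.95 to 0.90. The interval of NWD2 was the widest, 0.11 with -1.64 to 1.86, or folds of 0.321 to 3.63. With 2 rats a group these intervals do not show that AC1903 left the genes as they were.

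Over all genes, edgeR called 0 of 13426 in this comparison (0%), with 1090 at an unadjusted p under 0.05. DESeq2 called 67 (0.499%) and limma-voom 0, and none of the 5 was among them. The AC1903 and vehicle libraries did not overlap in 38.3% of all genes, against 0 of the 5 here, a count that the choice of genes also limits. In the authors' deposited table the log2 changes ran from -0.39 for LYPD1 to 0.11 for NWD2, with adjusted p of 0.997 or above.

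**Figure D3:**
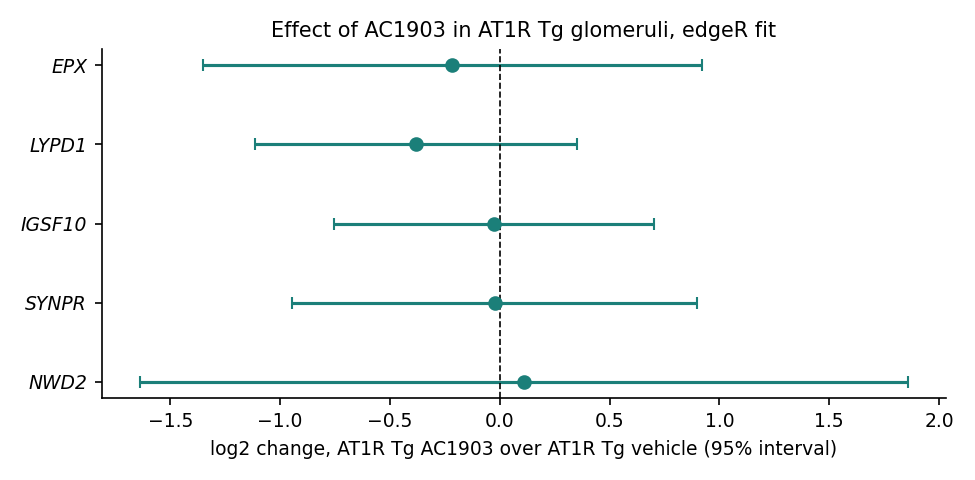
Log2 change of each gene, AT1R Tg AC1903 over AT1R Tg vehicle (horizontal axis), with bars for the 95% interval of the edgeR fit. Every interval includes 0, and that of NWD2 is the widest, at -1.64 to 1.86.

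Within the transgenic groups the libraries ranked alike for most of these genes, which the rule did not use. Vehicle replicate 1 stood above vehicle replicate 2 by 1.80 times for EPX, 1.91 for LYPD1, 2.11 for IGSF10, 2.19 for SYNPR and 1.79 for NWD2. A step of at least 1.5 times in that direction was seen in 5 of 5 genes, against 13.9% of all genes and 6.99% of the 1517 genes that were higher in all AT1R Tg libraries. The step of 1.5 was set after the values were seen. AC1903 replicate 2 stood above AC1903 replicate 1 by 1.37 to 1.84 times in 4 of the 5, where 49.4% of all genes had that order, and NWD2 went the other way on 33 and 18 counts. Vehicle replicate 1 came from a rat of 20.4 weeks and had 25.3% mitochondrial counts, while vehicle replicate 2 came from a rat of 17.4 weeks and had 40.5%. AC1903 replicate 2 also came from a rat of 20.4 weeks, with 32.0% mitochondrial counts, and AC1903 replicate 1 from one of 23.0 weeks, with 33.9%. In both groups the rat of 20.4 weeks thus gave the higher library for EPX, LYPD1, IGSF10 and SYNPR. The part of age and of the mitochondrial share in these steps was not tested.

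Podocyte markers had the same order. Their summed level over 10 genes was 10178 and 13462 CPM in AC1903 replicates 1 and 2, 17135 and 9051.5 CPM in vehicle, and 15686 and 13443 CPM in WT. Of the 10, 9 were higher in vehicle replicate 1 than in vehicle replicate 2 and 9 were higher in AC1903 replicate 2 than in AC1903 replicate 1. CPM is a share of each library, so in bulk glomeruli fewer podocytes, less RNA per podocyte and more of other RNA cannot be told apart.

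Per 1000 CPM of these markers the vehicle replicates lay closer together for all 5 genes, and the AC1903 replicates for all but NWD2. The WT replicates lay further apart on this scale for EPX (7.93 against 6.80 times in CPM), LYPD1 (1.23 against 1.05 times) and SYNPR (1.82 against 1.56 times), and closer for IGSF10 (1.06 against 1.10 times). LYPD1 stood at 23.6 and 28.7 CPM per 1000 with AC1903, 31.2 and 30.98 with vehicle, and 3.35 and 4.12 in WT. The vehicle replicates thus differed by 1.01 times on this scale and by 1.91 times in CPM. EPX stood at 0.973 and 1.22 per 1000 with AC1903, 1.14 and 1.205 with vehicle, and 0.00458 and 0.0363 in WT.

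For IGSF10 the vehicle replicates differed by 1.11 times per podocyte marker level and for SYNPR by 1.16 times, against 2.11 and 2.19 times in CPM. For NWD2 the vehicle replicates differed by 1.06 times on this scale, but its AC1903 replicates differed by 2.52 times, more than the 1.91 times in CPM. AC1903 over vehicle was then 0.932 for EPX, 0.840 for LYPD1, 1.10 for IGSF10, 1.09 for SYNPR and 1.27 for NWD2, each a ratio of group means. The gap from WT was wider on this scale: the lowest AT1R Tg library stood 26.8 times above the highest WT library for EPX, 5.72 for LYPD1, 6.61 for IGSF10 and 7.88 for SYNPR, and at least 15.6 times for NWD2. The scale was added after the replicate order had been seen, and which cells made these transcripts was not tested.

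**Figure D4:**
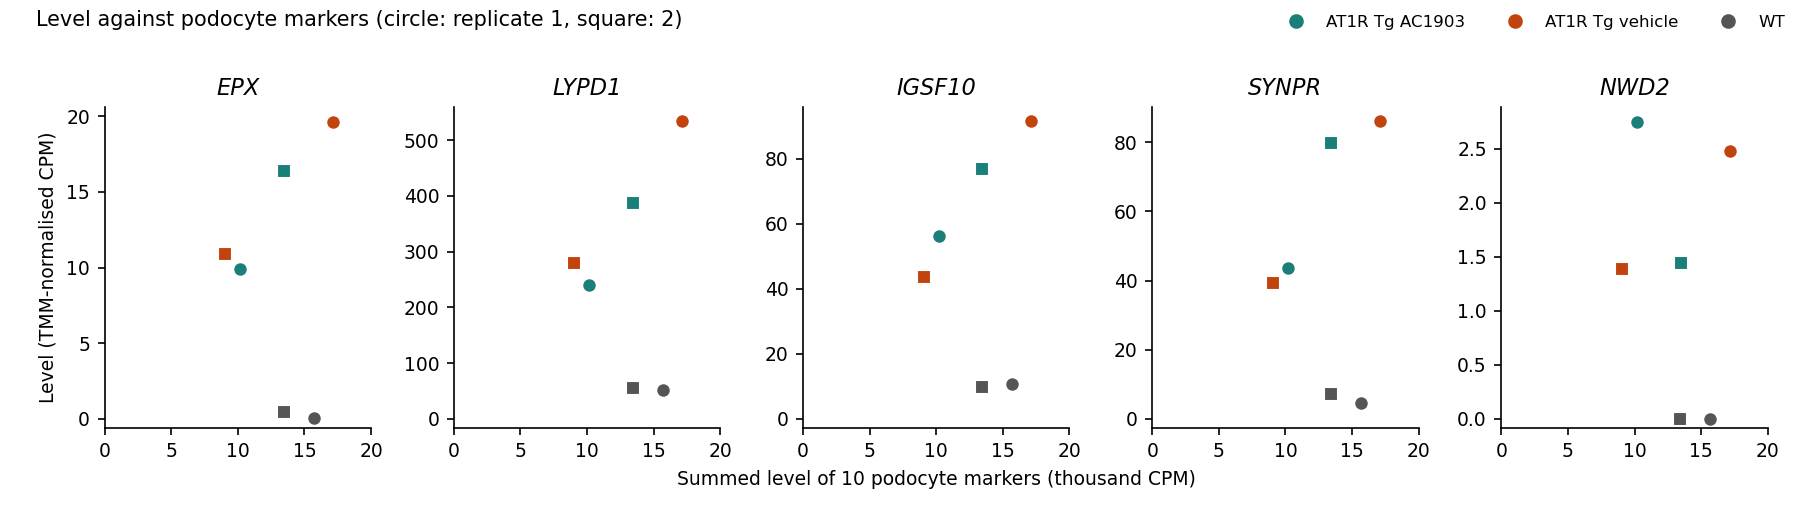
Level of each gene in CPM (vertical axes) against the summed level of 10 podocyte markers in units of 1000 CPM (horizontal axes), 1 point per library, coloured by group, with circles for replicate 1 and squares for replicate 2. The 2 AT1R Tg libraries with more of the markers, at 13462 and 17135 CPM, hold the 2 highest levels of EPX, LYPD1, IGSF10 and SYNPR, while both WT points lie near the bottom at 13443 and 15686 CPM of the markers.

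Markers of other glomerular cells shared that order in part. Mesangial and smooth muscle markers summed to 561 and 613 CPM with AC1903, 799.7 and 624 CPM with vehicle, and 815 and 901 CPM in WT. Parietal epithelial markers summed to 209 and 318 CPM with AC1903, 300.4 and 246 CPM with vehicle, and 287 and 276 CPM in WT. Both sums thus had the replicate order of EPX, LYPD1, IGSF10 and SYNPR, with smaller steps than the podocyte markers in vehicle. With AC1903 the step of the parietal sum was larger than that of the podocyte markers, and the mesangial step smaller. That parietal step rested largely on VCAM1, at 44.5 and 106 CPM with AC1903. CD24, the most abundant parietal marker there, had 93.7 and 119 CPM. All 5 parietal markers measured were higher in AC1903 replicate 2 than in replicate 1. The part of both sums in these genes' levels was not tested. Proximal tubule markers summed to 2367 and 2411 CPM with AC1903, 2273 and 4263 CPM with vehicle, and 1652 and 1119 CPM in WT. These tubule markers were therefore higher in the AT1R Tg libraries, as the 5 genes were, yet highest in vehicle replicate 2, which had the least IGSF10, SYNPR and NWD2 of the 4 AT1R Tg libraries. Glomerular endothelial markers summed to 6067 to 8698 CPM in the AT1R Tg libraries and to 8568.5 and 8758 CPM in WT.

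Other granulocyte genes were looked at beside EPX. None of 10 other eosinophil markers, such as PRG2 and CCR3, could be paired with a gene ID, so eosinophils are not analysed here beyond EPX itself. S100A9, a neutrophil protein, had 2.58 and 1.28 CPM with AC1903, 0.495 and 0.488 CPM with vehicle, and 1.54 and 2.79 CPM in WT. CSF3R, the granulocyte growth factor receptor, had 2.33 and 6.95 CPM with AC1903, 0.849 and 1.14 CPM with vehicle, and 2.30 and 2.66 CPM in WT. Both were thus lower in vehicle than in WT, where EPX was higher, although neither passed (adjusted p of 0.26 and 0.472 in edgeR). Measured were 4 of 13 neutrophil granule genes, 3 of 11 eosinophil-recruiting signals and 2 of 9 mast cell and basophil markers. None of these was higher in all 4 AT1R Tg libraries, where 11.3% of all genes were, and they are too few to tell from that share. The eosinophil attractant CCL24 had 1.41 and 1.36 CPM with AC1903, 0 and 0.733 CPM with vehicle, and 0.574 and 0.813 CPM in WT. It was thus above both WT libraries with AC1903, and neither comparison passed (adjusted p of 0.76 for AC1903 and 0.81 for vehicle against WT in edgeR).

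Relatives of the 5 genes were then examined, to see whether whole families moved. Over 8 lists, 57 genes were tested, and in edgeR 0 of them passed in AC1903 against vehicle, in vehicle against WT or in AC1903 against WT. Over all genes edgeR called 10 (0.0745%) in vehicle against WT and 5 (0.0372%) in AC1903 against WT. DESeq2 called 1 of the 57 in AC1903 against vehicle and 3 in vehicle against WT, where it called 4.25% of all genes. It called 0 of the 57 in AC1903 against WT, where it called 1.35% of all genes. Of the 57, 8 (14.0%) were higher in all 4 AT1R Tg libraries, against 11.3% of all genes.

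Of the haem peroxidases, 4 of 9 were measured, with a median log2 change of 0.13 in vehicle against WT and 0.06 in AC1903 against WT, where all genes had medians of -0.03 and 0.0019. PXDN, which crosslinks basement membrane collagen, had 117 and 87.3 CPM with AC1903, 89.0 and 71.7 CPM with vehicle, and 105 and 91.8 CPM in WT. PTGS1, a cyclooxygenase, had 34.4 and 30.5 CPM with AC1903, 26.5 and 22.1 CPM with vehicle, and 24.5 and 26.6 CPM in WT. Neither showed the gap of EPX.

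In the Ly6/uPAR family 5 of 24 genes were measured, and the median log2 change was -0.27 in vehicle against WT and -0.21 in AC1903 against WT. CD59, an inhibitor of complement, had 301 and 272 CPM with AC1903, 289.8 and 261 CPM with vehicle, and 340.1 and 324 CPM in WT. LY6E had 695 and 475 CPM with AC1903, 487 and 634 CPM with vehicle, and 739 and 877 CPM in WT. Both were lower in the AT1R Tg libraries than in WT, where LYPD1 was higher, and neither passed (adjusted p of 0.459 to 0.655 against WT in edgeR). Of 16 nicotinic receptor subunits, the known partners of LYPD1, CHRNB1 was the 1 measured, at 1.66 and 2.72 CPM with AC1903, 4.81 and 3.01 CPM with vehicle and 5.96 and 5.99 CPM in WT (adjusted p = 0.354 for AC1903 against WT in edgeR).

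The 7 measured IGSF genes had a median log2 change of 0.49 in vehicle against WT and 0.53 in AC1903 against WT. Higher in all 4 AT1R Tg libraries were 3 of them, IGSF5, IGSF9B and IGSF11, where 11.3% of all genes were. The lowest AT1R Tg over the highest WT library was only 1.06 for IGSF5 and 1.03 for IGSF9B, and 1.25 for IGSF11. For IGSF9B these libraries had 0.665 and 0.646 CPM. IGSF11, an adhesion protein, had 37.4 and 42.6 CPM with AC1903, 40.2 and 100.2 CPM with vehicle, and 29.9 and 14.0 CPM in WT. It was the 1 IGSF gene that DESeq2 called in vehicle against WT, and edgeR gave an adjusted p of 0.193. Its highest library was vehicle replicate 2, the lowest AT1R Tg library of IGSF10. The 11 measured genes with immunoglobulin domains and leucine-rich repeats had a median log2 change of -0.21 in vehicle against WT and 0.15 in AC1903 against WT, so the medians differed in sign, and LRIG1 was the 1 that was higher in all 4 AT1R Tg libraries.

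Relatives of SYNPR showed no comparable gap. Of the synaptophysin and synaptogyrin family 6 of 7 were measured, with a median log2 change of 0.27 in vehicle against WT and 0.02 in AC1903 against WT. SYPL2 was the 1 higher in all AT1R Tg libraries, at 3.08 and 5.60 CPM with AC1903, 5.17 and 7.24 CPM with vehicle and 2.69 and 2.47 CPM in WT. Synaptophysin itself, SYP, stayed at 2.40 CPM or less in every library. Of 28 neuronal and synaptic vesicle markers 10 were measured, with a median of -0.12 in vehicle against WT and -0.13 in AC1903 against WT, and RAB3A and SYN1 were higher in all 4 AT1R Tg libraries.

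Around NWD2, 13 gene IDs of NACHT and related ATPases were measured, with medians of -0.19 in vehicle against WT and 0.34 in AC1903 against WT. NLRC5, a regulator of MHC class I genes, had 18.7 and 16.9 CPM with AC1903, 3.33 and 4.23 CPM with vehicle, and 7.72 and 10.003 CPM in WT. It was the 1 relative that DESeq2 called in AC1903 against vehicle, and edgeR gave an adjusted p of 0.446. NOD1, a sensor of bacterial cell walls, was called by DESeq2 in vehicle against WT together with NLRC5, both lower in vehicle, and edgeR gave 0.191 and 0.178 for them. The AC1903 and vehicle libraries did not overlap for NLRC5, and they did for NWD2.

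Genes next to the 5 on the chromosome were compared, 3 on each side that carried a symbol, in the gene order of GRCr8. Of 30 such neighbours 29 were tested, and 2 (6.90%) were higher in all 4 AT1R Tg libraries, against 11.3% of all genes. In edgeR 0 of the 29 passed in any of the 3 comparisons, and their median log2 change was 0.0022 in vehicle against WT and 0.05 in AC1903 against WT. Those 2 both lay beside LYPD1. NCKAP5, its neighbour on one side, had 1.83 and 3.28 CPM with AC1903, 2.05 and 1.38 CPM with vehicle, and 0.646 and 0.380 CPM in WT (adjusted p of 0.354 and 0.356 against WT in edgeR). ACMSD, an enzyme of tryptophan breakdown, had 30.0 and 31.8 CPM with AC1903, 29.8 and 69.0 CPM with vehicle, and 17.6 and 9.38 CPM in WT.

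In GRCr8 EPX overlaps MKS1, LYPD1 overlaps GPR39 and IGSF10 overlaps Med12l, SYNPR overlaps a pair of pseudogenes, and the sources used here do not state whether counting used strand. MKS1 had 8.90 and 9.43 CPM with AC1903, 7.93 and 8.38 CPM with vehicle, and 8.51 and 13.1 CPM in WT. GPR39 had 1.25 and 0.400 CPM with AC1903, 3.68 and 2.69 CPM with vehicle, and 0.7895 and 1.87 CPM in WT. No AT1R Tg library of MKS1 lay above both WT libraries. GPR39 stood above both WT libraries in vehicle, with the vehicle replicate order of LYPD1, and its AC1903 libraries overlapped those of WT. Med12l is not analysed here, and whether reads of overlapping genes were counted for the 5 genes was not tested.

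**Figure D5:**
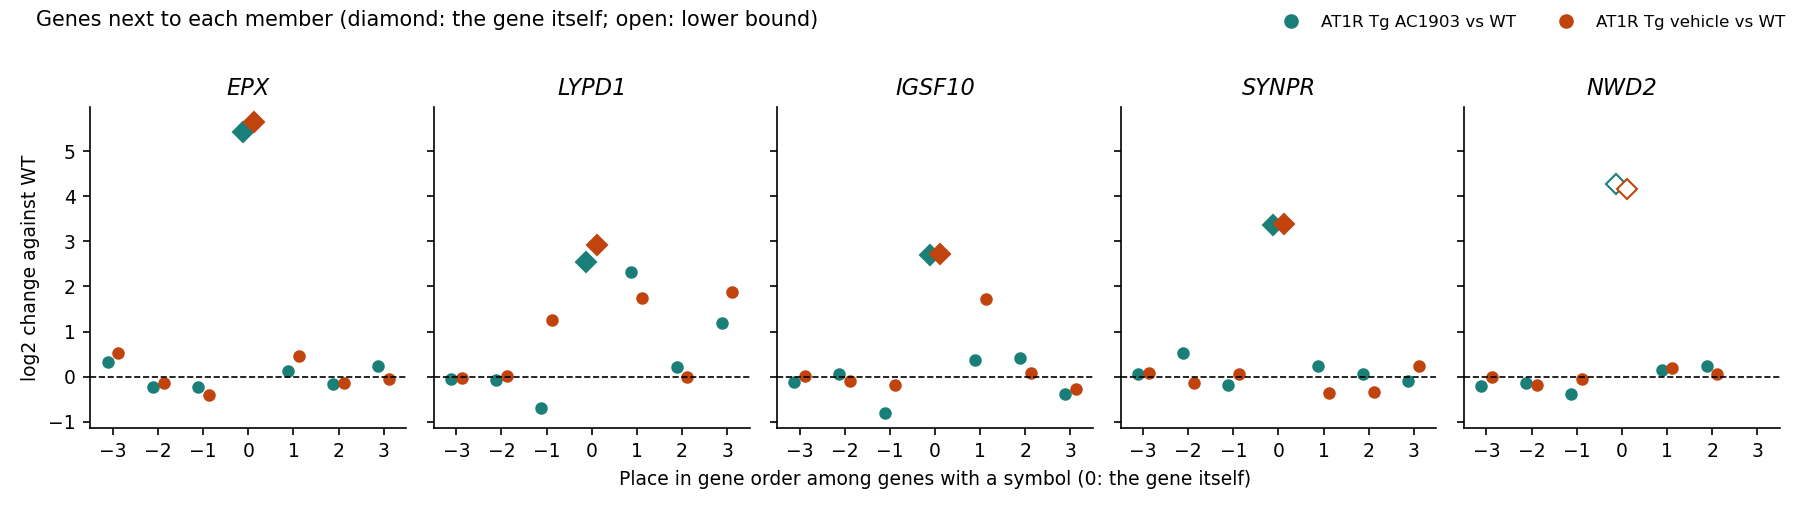
Log2 change against WT (vertical axis) of each gene and of its 3 nearest neighbours with a symbol on each side, by place in gene order (horizontal axes); diamonds are the genes themselves, with open diamonds for the lower bounds of NWD2. Circles are neighbours, and the third on the right of NWD2 was not tested; those beside LYPD1 spread most, with NCKAP5 at 2.31 for AC1903 and 1.75 for vehicle.

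By Pearson correlation of log2 CPM over the 6 libraries, the genes most like each of the 5 were listed. With WT apart from AT1R Tg in all of these, the coefficients rest mainly on that gap. RUNX2, a transcription factor of osteoblasts, was among the nearest to EPX (r = 0.993) and to NWD2 (r = 0.982). TGFB3 was the nearest to LYPD1 (r = 0.992), GDF5 was near IGSF10 (r = 0.988), and SSTR3, a somatostatin receptor, near SYNPR (r = 0.993). SSTR3 had 3.99 and 4.64 CPM with AC1903, 6.02 and 3.58 CPM with vehicle, and 1.22 and 1.57 CPM in WT. LYPD1 was itself among the nearest to IGSF10 and to SYNPR (r = 0.989 for each), and between any 2 of the 5 genes r lay between 0.949 and 0.989.

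The other genes on these lists had smaller gaps. SPNS3, of the spinster transporter family, was the nearest to IGSF10 (r = 0.993), at 3.74 and 4.24 CPM with AC1903, 4.95 and 2.69 CPM with vehicle and 1.40 and 1.22 CPM in WT. ID4, an inhibitor of helix-loop-helix factors, was near LYPD1 (r = 0.989), at 8.73 and 11.4 CPM with AC1903, 11.2 and 9.52 CPM with vehicle and 5.92 and 5.94 CPM in WT. C14orf2, nearest to both EPX and SYNPR (r = 0.994 for each), stayed at 1.84 CPM or less in every library. THADA was near EPX (r = 0.988) and TMEM64 near NWD2 (r = 0.986), both with log2 changes against WT of 0.50 to 0.67.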

How the data were processed

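The authors deposited expected counts per Ensembl rat gene for 6 libraries made with a stranded mRNA kit, per the labels' protocols. The submitters' processing notes list Rnor 5.0, RSEM 1.3.0 and STAR 2.5.2b. Annotation release, read filters and use of strand were not stated there. The authors' deposited tables also give log2 fold changes and adjusted p-values for 2 comparisons, per the file headers, and name no tool. Symbols came from those tables (12321 gene IDs), which list human symbols, and genes whose symbol is not there are not analysed here.

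Counts were rounded, filtered with filterByExpr by group, scaled by TMM and tested two-sided with edgeR's quasi-likelihood test (edgeR 4.0.16, R 4.3.3) over the 6 libraries together, which left 3 degrees of freedom. P-values were adjusted by Benjamini-Hochberg over 13426 genes, at a threshold of 0.05. DESeq2 1.42.0 and limma-voom (limma 3.58.1) were alternatives. Depth ran from 12325515 to 36026772 counts, and intervals and floors of 3 counts cover counting error only. The ages of the 2 samples of a group differ, so they came from different rats; they also differed beyond sampling noise (chi-square per degree of freedom of 19.9 to 98.7). The edgeR step was tested on simulated data. Genes were named by rule: the 5 genes, up to 4 per list by smallest p, 3 most alike and 3 neighbours a side per gene, and the top 10 by ratio; part of these is given, and a few list genes were chosen for being higher in all AT1R Tg libraries. The 5 genes and all lists were chosen with earlier results of these data known. Correlations used log2 CPM with a prior count of 2.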

Additional observations from a re-analysis of the deposited data

How the results depend on the processing

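No alternative brought AC1903 against vehicle past the threshold for any of the 5 genes; the lowest adjusted p was 0.493 for LYPD1, 0.436 for IGSF10, 0.555 for SYNPR, 0.759 for EPX and 0.872 for NWD2. The sign of the log2 change was not stable. With 1 library left out at a time the change ran from -0.65 to 0.27 for EPX and -0.79 to 0.16 for LYPD1. It ran from -0.47 to 0.61 for IGSF10, -0.55 to 0.65 for SYNPR and -0.46 to 0.59 for NWD2. Without vehicle replicate 1 the change was positive for each gene, as that of NWD2 (0.11) already was over all libraries. Without AC1903 replicate 1 the sign turned for EPX (0.069), IGSF10 (0.15), SYNPR (0.32) and NWD2 (-0.46). Without vehicle replicate 2 the sign turned for NWD2 (-0.25). It also turned with limma-voom for IGSF10 (0.046) and SYNPR (0.011), with the replicate block for IGSF10 (0.038) and with age as a covariate for NWD2 (-0.76); the cause was not tested. NWD2 did not enter the filter at 5 CPM.

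The 5 genes stayed above WT in all 4 AT1R Tg libraries under every scaling. The lowest AT1R Tg over the highest WT library ran from 20.3 to 91.9 for EPX and from 5.38 to 8.41 for SYNPR with 1 library left out, the high values without WT replicate 2. It was 6.61 for IGSF10 per podocyte marker counts. The number of genes higher in all AT1R Tg libraries was 902 with library totals without TMM, and 1917 to 3028 with 1 library left out, which relaxes the rule; it was 3028 without WT replicate 1 and 2324 without WT replicate 2.

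Counts of calls over all genes moved widely. For AC1903 against vehicle they were 67 with DESeq2, 114 with no filter, 2 with the replicate block, 1 with age and 0 to 4 with 1 library left out. For vehicle against WT they were 560 with DESeq2, 774 with no filter, and 4 each with the replicate block, with age and with only the 2 groups. With 1 library left out they were 1 to 530: 530 without vehicle replicate 1, 24 without vehicle replicate 2, 1 without WT replicate 1, 4 without WT replicate 2, and 4 and 3 without AC1903 replicates 1 and 2. For AC1903 against WT they were 181 with DESeq2, 464 with no filter, 21 with only the 2 groups and 1 to 25 with 1 library left out. Where a group was left with 1 library, that library was assumed to vary like the other groups. Same-numbered libraries did not deviate together over all genes (correlations of -0.0409 to 0.00458), so the numbers gave no sign of pairing. The rats of 20.4 weeks carry different numbers (AC1903 replicate 2, vehicle replicate 1 and WT replicate 1), and pairing by age was not tested.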
